A study of Mus musculus with 8 samples.

Results

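Small nucleolar RNAs (snoRNAs) and the genes that carry them were followed through RNA-seq libraries of laser-captured mouse spinal cord. All genes whose symbol begins with Snord, Snora, Scarna or Snhg were taken, which gave 125 of the 23278 genes measured. They were 69 Snord genes (box C/D snoRNAs), 36 Snora genes (H/ACA snoRNAs), 9 Scarna genes (small Cajal body RNAs) and 11 Snhg genes (small nucleolar RNA host genes). The symbols alone chose the members, and no measured value entered the choice. Of the 125 genes, 100 reached 1 RPKM (reads per kilobase of gene and per M reads) in at least 2 libraries and were tested, and 25 did not. The tested genes were 59 Snord, 23 Snora, 8 Scarna and 10 Snhg genes. Snora41 and Snord70 were listed at 0 in every library.

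The study profiled total RNA of the lumbar spinal cord at postnatal day 1 in FVB/N mice. Ventral horn motor neurons and white matter glia were each cut out by laser from WT mice and from a mouse model of spinal muscular atrophy (SMA), with 2 libraries in each of the 4 groups. The SMA genotype is given as SMN2+/+;SMNΔ7+/+;Smn-/-, so these mice lack the mouse survival motor neuron gene and carry the human SMN2 and SMNΔ7 transgenes, and the other group is given as WT with no further allele. The series title calls the model pre-symptomatic. The labels do not say how many animals gave each library or whether the 2 libraries of a group came from separate animals, so the p-values below measure only the spread between these libraries, which may be technical. Regions were captured by position and staining, not by a marker gene.

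Box C/D snoRNAs pair with ribosomal RNA and direct its 2′-O-methylation together with fibrillarin, Nop56, Nop58 and Nhp2l1, and H/ACA snoRNAs direct pseudouridylation together with dyskerin (Dkc1), Gar1, Nhp2 and Nop10. The small Cajal body RNAs guide the same changes on spliceosomal RNAs in Cajal bodies, nuclear bodies that also hold the SMN protein. In mice most snoRNAs are cut out of the introns of host genes, many of which code for ribosomal proteins or translation factors, while Snhg genes are hosts whose spliced RNA mostly codes for no protein.

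The sequences of 12 members show what was counted, and were chosen because the results below turn on these genes. They were read by gene name from the GENCODE M21 transcripts of the GRCm38 build, whereas the deposited values were made on mm9. Each runs 5′ to 3′. In the Snord genes capitals mark the letters TGATGA (the box C motif) where present and the last CTGA (the box D motif), and in the Snora genes the ACA triplet near the 3′ end.
Snord42a (chr11:78181299-78181363, minus strand): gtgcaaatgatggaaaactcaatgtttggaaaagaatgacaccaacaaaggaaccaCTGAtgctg
Snord42b (chr11:78183056-78183124, minus strand): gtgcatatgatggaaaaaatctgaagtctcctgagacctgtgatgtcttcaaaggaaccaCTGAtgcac
Snord4a (chr11:78181686-78181756, minus strand): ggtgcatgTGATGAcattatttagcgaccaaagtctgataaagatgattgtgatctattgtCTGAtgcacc
Snord104 (chr11:106500993-106501062, plus strand): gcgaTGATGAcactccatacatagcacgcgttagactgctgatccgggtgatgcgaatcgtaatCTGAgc
Snord95 (chr11:48803139-48803206, plus strand): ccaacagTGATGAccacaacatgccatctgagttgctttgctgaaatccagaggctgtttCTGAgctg
Snord83b (chr15:80078498-80078591, minus strand): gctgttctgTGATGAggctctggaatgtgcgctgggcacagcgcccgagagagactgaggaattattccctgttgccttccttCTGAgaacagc
Snord17 (chr2:144265979-144266216, minus strand): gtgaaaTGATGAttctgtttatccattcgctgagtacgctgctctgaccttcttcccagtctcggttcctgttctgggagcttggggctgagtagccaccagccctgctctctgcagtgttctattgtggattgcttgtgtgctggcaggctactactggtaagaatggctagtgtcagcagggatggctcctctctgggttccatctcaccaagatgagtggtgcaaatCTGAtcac
Snord88a (chr7:44250135-44250224, plus strand): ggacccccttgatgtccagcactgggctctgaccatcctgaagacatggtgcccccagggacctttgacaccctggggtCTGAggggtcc
Snord88c (chr7:44249852-44249941, plus strand): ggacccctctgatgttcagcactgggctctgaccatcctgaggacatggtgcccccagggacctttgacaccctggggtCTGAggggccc
Snord116l1 (chr7:59894620-59894713, minus strand): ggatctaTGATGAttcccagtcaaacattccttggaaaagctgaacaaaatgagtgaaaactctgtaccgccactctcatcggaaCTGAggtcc
Snora65 (chr2:32963291-32963420, plus strand): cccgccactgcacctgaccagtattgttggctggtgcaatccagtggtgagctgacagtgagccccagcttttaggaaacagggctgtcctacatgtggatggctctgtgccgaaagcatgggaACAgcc
Snora68 (chr8:70895759-70895889, minus strand): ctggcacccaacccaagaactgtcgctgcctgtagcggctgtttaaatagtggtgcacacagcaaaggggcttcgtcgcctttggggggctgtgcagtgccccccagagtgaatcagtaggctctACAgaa

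TGATGA followed by CTGA, searched on the given strand only, was found in 45 of the 67 Snord members with a single reference sequence (67.2%) and in 0 of 34 Snora members. The same letters occurred in 0.304% of 32851 mouse promoter windows cut to 80 bases. Snord42a, Snord42b, Snord88a and Snord88c do not hold TGATGA exactly. Snord88a and Snord88c share 85 of 90 aligned bases (94.4%), so reads could be split between them by the authors' counting. Snord116l1 and Snord116l2 are identical over 94 bases, and Snord42a and Snord42b share 48 of 70 aligned columns (68.6%).

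These genes were measured with few reads. A read number was worked out for each value from the steps between RPKM values, as 1 read in a gene of 80 bases was worth 0.122 to 0.161 RPKM in the 8 libraries. The 112 snoRNA and scaRNA genes with a length were 42 to 273 bases long with a median of 81.5, and 105 of them were shorter than 150 bases. The labels give 150 to 300 bases as the size range of the cDNA fragments recovered, so a fragment from such a gene alone would fall below that range. All 114 Snord, Snora and Scarna genes together held 16896 reads in the 8 libraries, against 43.3 to 66.8 M reads recovered on genes in each library. The median snoRNA or scaRNA gene had 89.5 reads over the 8 libraries and 62 had under 100. Snord42a, Snord42b and Snord4a, which lie in 1 host gene (Rpl23a), gave 12.9% of these reads. The data therefore hold a thin sample of these genes, and a count of 0 allows a level of up to 3 reads, or 0.365 to 0.484 RPKM for a gene of 80 bases. These limits cover counting error only, since PCR reads without molecular identifiers are not independent molecules.

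Replicate libraries correlated less well over these genes than over all genes. The correlation of log2(RPKM + 1) across the tested members, which is across genes and not across independent samples, was 0.68 between the WT motor neuron libraries and 0.35 between the SMA ones, and for white matter 0.53 (WT) and 0.55 (SMA). Over all 13948 tested genes it was 0.96, 0.89, 0.94 and 0.94. The SMA motor neuron replicate 2 stood apart: it held 78 reads of Snhg1 where replicate 1 held 672, and Gas5, a host gene outside the name rule, was at 1.93 RPKM against 10.81. The region differences in SMA of Snhg1, Gas5, Snx5, Snord4a, Snord17 and Snord42a are given with and without it.

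Markers of each cell type were read beside the labels. All 8 motor neuron markers were higher in motor neurons in both genotypes, with summed levels of 1676 to 2413 RPKM against 17.1 to 51.0 in white matter, and all 6 oligodendrocyte markers and all 7 microglia markers were lower there. Oligodendrocyte markers were not absent from the motor neuron captures (39.5 to 111 RPKM summed, against 1699 to 4452 in white matter). Astrocyte markers were abundant in both, at 646 to 764 RPKM summed in motor neuron captures and 938 to 1356 in white matter, with 4 of 5 called lower in motor neuron captures in each genotype. All 5 interneuron markers were higher in motor neurons in WT and 4 of 5 in SMA (185 to 347 RPKM summed, against 6.17 to 28.8 in white matter), and none of these lists was at 0. Proliferating cell markers were lower in the motor neuron captures in 4 of 5 genes in WT and 5 of 5 in SMA. The part of these cells in the members' differences was not tested. Smn1, which the model lacks, was listed at 0 in all 4 SMA libraries and at 2.93 to 14.3 RPKM in the WT libraries.

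Motor neuron captures held fewer snoRNA and scaRNA reads than white matter captures in both genotypes. Their summed reads, as RPM (reads per M of all reads), were 13.7 and 12.9 in WT motor neurons and 13.1 and 13.4 in SMA motor neurons. In white matter they were 29.3 and 33.7 RPM in WT and 27.5 and 38.9 in SMA. Every white matter library lay above every motor neuron library, and the SMA and WT ranges overlapped in both regions. Without the 3 genes inside Rpl23a the sums were 10.4 to 12.2 RPM in motor neurons and 21.9 to 34.3 in white matter. Scaled to the reads recovered on genes in place of all reads, they were 17.3 to 22.6 and 39.8 to 67.6 RPM. In these bulk captures fewer cells of a type and less RNA per cell cannot be told apart.

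**Figure D1:**
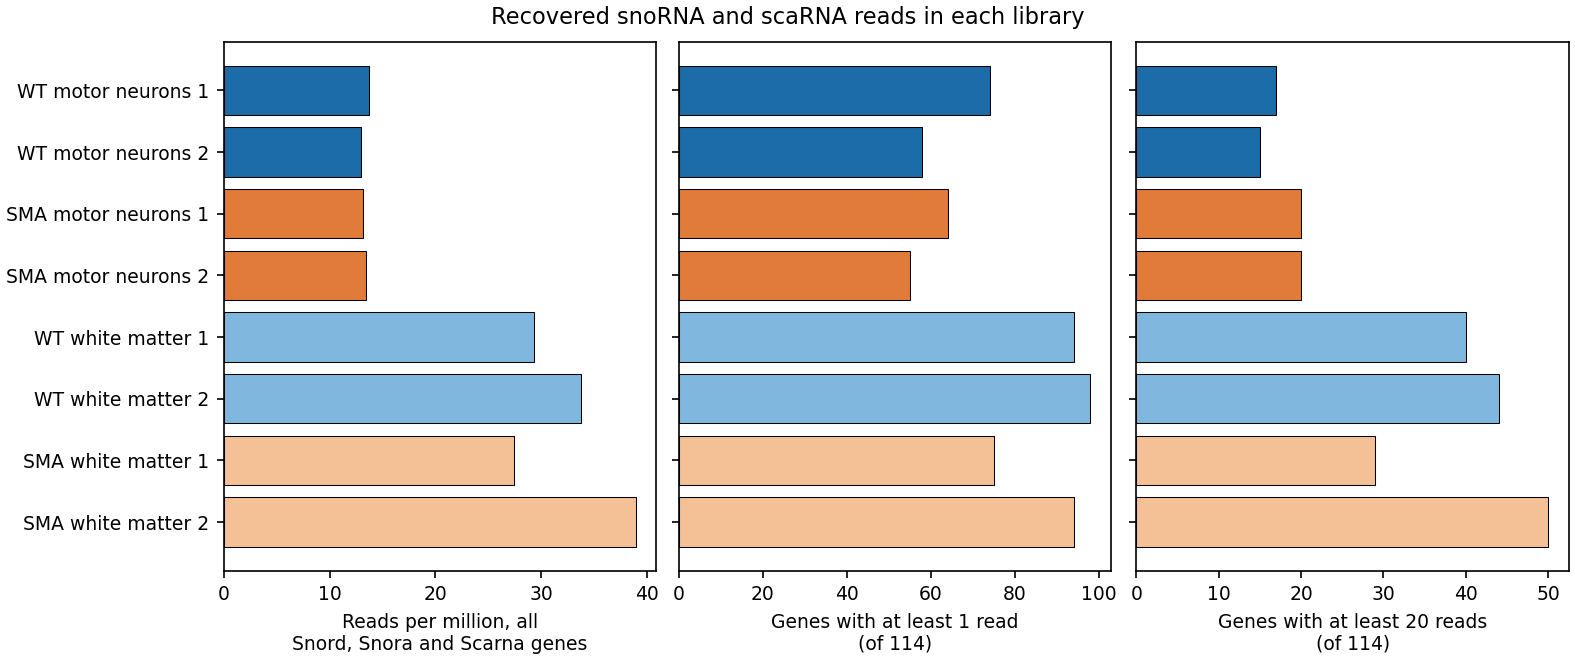
Recovered reads of the 114 Snord, Snora and Scarna genes in each library: summed RPM (left), genes with at least 1 read (middle) and genes with at least 20 reads (right), bars starting at 0. The 4 motor neuron libraries sit at 12.9 to 13.7 RPM, all below the white matter libraries at 27.5 to 38.9.

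More of these genes were seen at all in white matter. At least 1 read was found for 74 and 58 of the 114 genes in WT motor neurons, 64 and 55 in SMA motor neurons, 94 and 98 in WT white matter and 75 and 94 in SMA white matter. At least 20 reads were found for 15 to 20 genes in the motor neuron libraries and for 29 to 50 in the white matter libraries. Of the 112 genes above 0 somewhere, 19 (17.0%) had no read in any motor neuron library and 1 (0.893%) had none in any white matter library. Over all 19124 genes above 0 somewhere, these shares were 6.31% and 3.34%. The 622 microRNA genes, another class of short genes inside longer transcripts, held 355 to 381 RPM in motor neurons and 407 to 584 in white matter, the same order with a smaller ratio.

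By class, Snord genes held 6.31 to 7.70 RPM in motor neurons and 15.6 to 25.4 in white matter, and Snora genes held 4.36 to 6.41 and 9.92 to 12.5. The Scarna genes overlapped between regions, at 0.406 to 0.942 RPM in motor neurons and 0.506 to 1.67 in white matter. The Snhg genes went the other way, at 216 to 343 against 82.8 to 112, with most motor neuron reads from Snhg11. Without Snhg11 they held 18.6 to 34.8 RPM in motor neurons and 54.3 to 90.8 in white matter.

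Gene by gene, motor neurons were compared with white matter within each genotype by limma on log2(RPKM + 1) over all 13948 tested genes, with a Benjamini-Hochberg adjusted p under 0.05 as a call. In WT, 17 of the 100 tested members were lower in motor neurons, against 9.85% of all tested genes, and 1 was higher, against 18.6% of all genes. In SMA, 17 were lower, against 17.2% of all genes, and 2 were higher, against 13.6%. In this fit the share of lower calls was above that of all genes in WT and near it in SMA, and the share of higher calls was below it in both genotypes. The median difference of the members was -1.01 in WT, where that of all genes was 0.08, and -0.73 in SMA, where that of all genes was -0.24.

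The filter favoured genes high in white matter among the members. Of the 100 tested members, 41 reached 1 RPKM in 2 libraries of white matter but not in 2 of motor neurons, and such genes were 9.79% of all tested genes. A gene that passed in this way was let in by the group where it is high. These 41 gave 8 of the 17 lower calls in WT and 10 of the 17 in SMA. Of all genes, 1366 passed in this way, and 368 of them were called lower in WT and 566 in SMA. That was a larger share than among the 41 members in each genotype. The members so called were Scarna8, Scarna9, Snora5c, Snord1b, Snord15b, Snord17, Snord22, Snord33, Snord58b, Snord85, Snord88a, Snord88c, Snord111 and Snord123. Their calls, here and below, are descriptions. The counts and medians above therefore describe the genes that passed and support no statement about all members. With no filter on low values, 13 of 123 members were lower in WT (5.91% of all genes) and 19 of 123 in SMA (10.7%).

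These counts differed in a fit on the recovered reads. With voom, which gives values from few reads less weight, the share of members called lower was below that of all genes in both genotypes. The voom fit also scaled to the summed reads on genes and did not add 1 RPKM, and which of these moved the counts was not tested. Its median difference of the members was -2.30 in WT and -1.54 in SMA, where that of all genes was -0.36 in each. In WT 3 members were called against 31.6% of all genes (Snhg11 higher, Snhg1 and Snhg5 lower, so no snoRNA), with lower calls in 2 of 100 members and 18.7% of all genes. In SMA 9 members were called against 34.1% (Snhg11 higher, and Snhg1, Snhg7, Snhg12, Snord4a, Snord17, Snord22, Snord42a and Snord88c lower), with lower calls in 8 of 100 members and 20.2% of all genes.

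The counts also moved with single libraries, and those of all genes moved too. In WT, where 18 members and 28.4% of all genes were called, the counts were 5 and 14.4% without WT motor neuron replicate 1, 6 and 15.1% without WT motor neuron replicate 2, 5 and 15.2% without WT white matter replicate 2 and 12 and 18.5% without WT white matter replicate 1. The members' share of lower calls in WT fell just below that of all genes without WT motor neuron replicate 1 and without WT white matter replicate 2. It stayed above that of all genes without WT motor neuron replicate 2 and without WT white matter replicate 1. Each of these fits leaves 1 library in a group. The WT count was 32, against 38.2% of all genes, without either SMA motor neuron library, as all libraries share 1 estimate of the spread. In SMA the share of lower calls depended on the fit too. With the compared libraries alone it was 16 of 100 members against 8.96% of all genes, and so above all genes. The members' median in SMA relative to that of all genes ran from -0.11 to -0.73 when 1 library was left out. Of the 37 differences called in either genotype, the 18 in WT compare no SMA library. Leaving out SMA motor neuron replicate 2 reaches them only through the shared estimate of the spread. For the 19 in SMA it leaves 1 library in a group, so calls kept without it do not measure their stability. None of the 37 changed sign under any alternative run, and 10 stayed called under all of them. The calls kept under the fewest were Snora65 in SMA (4 of 17 alternatives), Snord33 in SMA and Snhg1 in WT (6 each), Snord4a and Snhg8 in WT (7 each) and Snhg5 in WT (8).

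By class, the lower calls in WT were 10 Snord, 3 Snora, 1 Scarna and 3 Snhg genes, and in SMA 11 Snord, 1 Snora, 2 Scarna and 3 Snhg genes. In all, 28 members were called in 1 genotype or both. Snhg11 was higher in both, 7 genes were lower in both (Snhg1, Scarna9, Snord104, Snord17, Snord4a, Snord85 and Snord88a) and Snord83b was called in opposite directions. A call in 1 genotype and not in the other does not show that the genotypes differ, and the test of that difference (the SMA effect in motor neurons minus that in white matter) called no member.

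**Figure D2:**
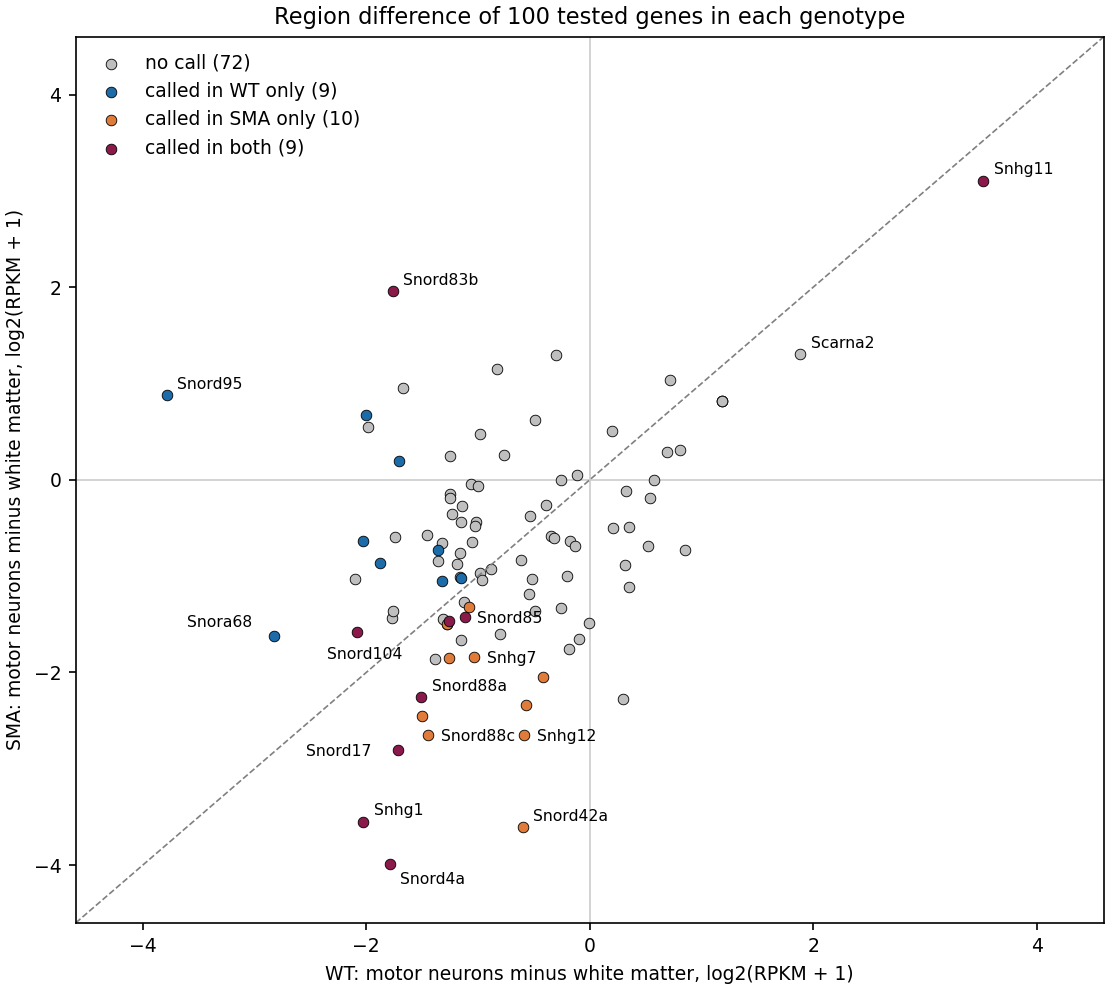
Log2(RPKM + 1) difference between motor neurons and white matter in WT (horizontal) and SMA (vertical) for the 100 tested genes; points are genes, colours mark calls at an adjusted p under 0.05 and the dashed line marks equal differences. Of the 100 points 67 lie below 0 on both axes, Snhg11 stands alone at the upper right, and Snord83b and Snord95 lie far above the dashed line.

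Among the hosts, Snhg11 was the member most enriched in motor neurons. Snhg11 is a long noncoding RNA of neurons and the longest member at 5864 bases. It was at 53.9 and 53.9 RPKM in WT motor neurons, 38.4 and 33.7 in SMA motor neurons, 5.79 and 2.37 in WT white matter and 2.52 and 4.23 in SMA white matter. Each motor neuron library held 16284 to 28749 reads of it and each white matter library 1343 to 2949, and the regions did not overlap. The log2 difference between regions was 3.52 ± 0.37 (SE) in WT (limma, adjusted p = 0.00018) and 3.11 ± 0.37 in SMA (adjusted p = 0.000454). Both SMA motor neuron libraries lay below both WT ones, by a log2 difference of -0.57 ± 0.37 that did not pass (adjusted p = 1.0).

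Snhg1, the host of Snord22 and of several other box C/D snoRNAs, was lower in motor neurons in both genotypes. Its levels were 12.5 and 13.7 RPKM in WT motor neurons, 17.3 and 1.99 in SMA motor neurons, 43.6 and 73.1 in WT white matter and 91.4 and 79.9 in SMA white matter. Every motor neuron library lay below every white matter library, and the SMA motor neuron libraries stood far apart, at 672 and 78 reads. The log2 difference was -2.03 ± 0.67 in WT (limma, adjusted p = 0.0466) and -3.55 ± 0.67 in SMA (adjusted p = 0.00404), and without SMA motor neuron replicate 2 the SMA value was -2.24 (adjusted p = 0.000976). Snord22 has a known part in processing 18S ribosomal RNA. With far fewer reads, it too was lower in every motor neuron library than in every white matter library. It held 4 and 17 reads in WT motor neurons, 0 and 0 in SMA motor neurons, 26 and 95 in WT white matter and 51 and 62 in SMA white matter. Within a region Snord22 did not follow the order of Snhg1. It was called in SMA (log2 difference -2.45 ± 0.51, adjusted p = 0.00632) and not in WT (-1.50 ± 0.51, adjusted p = 0.0513). The reference places Snord22 inside an annotated exon of a Snhg1 transcript, so reads of Snhg1 RNA could count for it.

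Snhg12, the host of Snora44, Snora61, Snora16a and Snord99, differed between regions in SMA. It was at 7.69 and 11.3 RPKM in WT motor neurons, 2.81 and 3.19 in SMA motor neurons, 16.1 and 13.0 in WT white matter and 21.1 and 27.4 in SMA white matter. The SMA motor neuron libraries were the lowest of all 8. The log2 difference between regions was -2.65 ± 0.31 in SMA (limma, adjusted p = 0.000412) and -0.59 ± 0.31 in WT (adjusted p = 0.191). The difference between those differences was -2.06 ± 0.44, with an unadjusted p of 0.000981 that did not survive adjustment over all genes (adjusted p = 0.883). Its snoRNA Snora61 did not show this order, with 10 and 4 reads in WT motor neurons, 5 and 57 in SMA motor neurons and 20 to 52 in white matter.

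**Figure D3:**
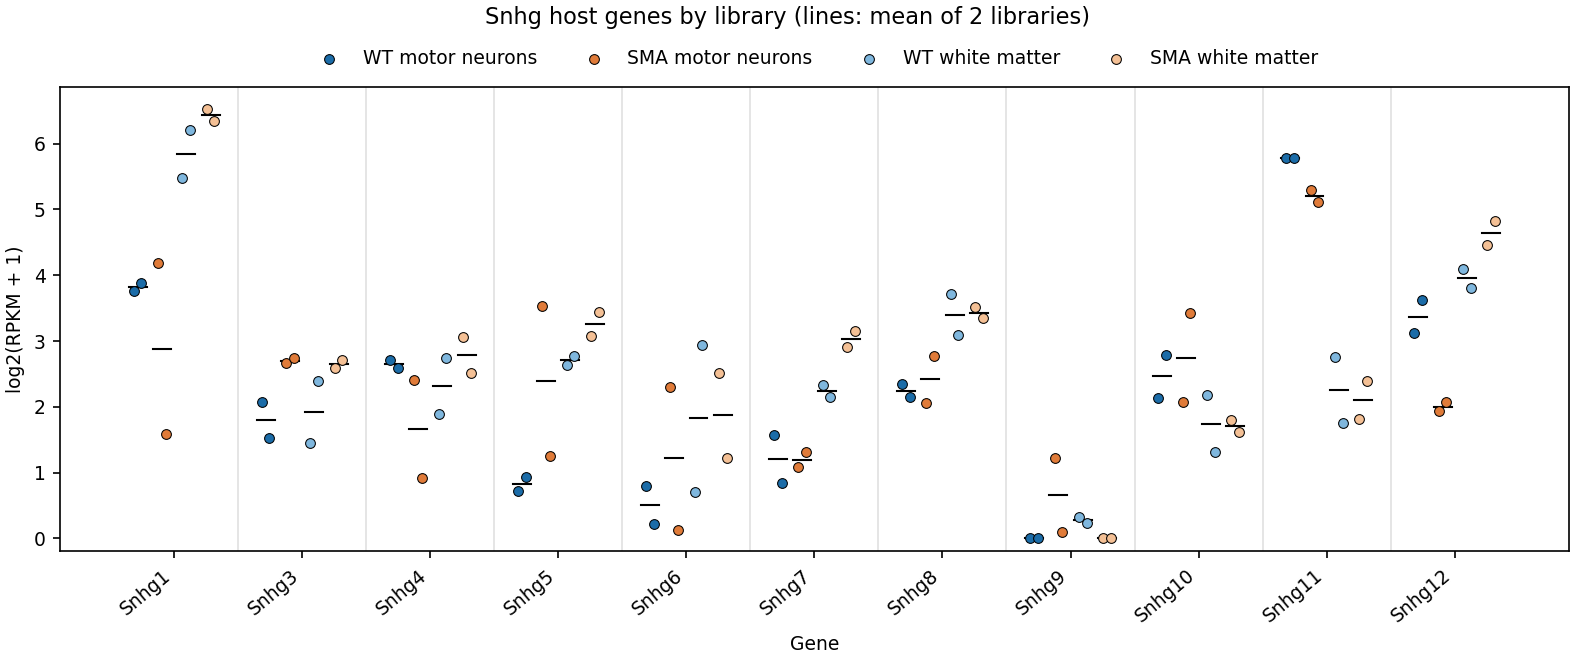
Levels of the 11 Snhg genes as log2(RPKM + 1) in each library; points are libraries, coloured by group, and lines mark the mean of 2 libraries. Snhg11 is high in motor neurons, Snhg1, Snhg7 and Snhg8 are lower there than in white matter, and the SMA motor neuron libraries lie far apart for Snhg1, Snhg4, Snhg5 and Snhg6.

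The other Snhg genes were lower in level. Snhg7 was at 0.782 to 1.97 RPKM in motor neurons and 3.41 to 7.88 in white matter, with no overlap, and was called in SMA (log2 difference -1.84 ± 0.37, limma, adjusted p = 0.00542) and not in WT (-1.03 ± 0.37, adjusted p = 0.0607). Snhg8, the host of Snora24, was at 3.18 to 5.81 RPKM in motor neurons and 7.51 to 12.1 in white matter, again without overlap, and was called in WT (-1.16 ± 0.37, adjusted p = 0.0407) and not in SMA (-1.02 ± 0.37, adjusted p = 0.0609). Snhg5 was at 0.653 and 0.907 RPKM in WT motor neurons, 10.6 and 1.38 in SMA motor neurons and 5.19 to 9.85 in white matter, so that SMA motor neuron replicate 1 alone reached the white matter range; it was called in WT (-1.88 ± 0.61, adjusted p = 0.0459). Snhg3, Snhg4, Snhg6 and Snhg10 were tested and not called in either genotype. Snhg6, which hosts Snord87, was at 3.94 RPKM in SMA motor neuron replicate 1 and at 0.0895 in replicate 2. Snhg9 held 20 reads in SMA motor neuron replicate 1 and 0 to 4 elsewhere, and was not tested.

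Many snoRNA host genes, including Gas5, are known to begin with a run of pyrimidines (C and T) that ties their translation to growth signals, so the starts of the 5 Snhg genes called lower in motor neurons in 1 genotype or both are shown with that of Snhg11. Each window runs from 40 bases before the RefSeq start to 30 bases from it on (GRCm38.p6), and capitals mark the longest run of C and T between 10 bases before and 15 bases after the start.
Snhg1 (chr19:8723447-8723516, plus strand): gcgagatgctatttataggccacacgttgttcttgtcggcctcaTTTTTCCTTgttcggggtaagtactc
Snhg5 (chr9:88522868-88522937, minus strand): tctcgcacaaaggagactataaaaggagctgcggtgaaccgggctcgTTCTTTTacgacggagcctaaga
Snhg7 (chr2:26640215-26640284, minus strand): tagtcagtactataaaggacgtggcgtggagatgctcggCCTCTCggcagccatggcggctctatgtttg
Snhg8 (chr3:123508307-123508376, minus strand): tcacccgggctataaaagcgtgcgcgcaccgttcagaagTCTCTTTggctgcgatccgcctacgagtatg
Snhg12 (chr4:132308638-132308707, plus strand): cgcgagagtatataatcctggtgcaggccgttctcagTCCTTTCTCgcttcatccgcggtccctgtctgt
Snhg11 (chr2:158375673-158375742, plus strand): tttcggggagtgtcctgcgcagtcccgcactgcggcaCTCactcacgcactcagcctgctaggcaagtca

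The run was 9 bases in Snhg1 and Snhg12, a length reached by 5.87% of the 32851 promoters, 7 in Snhg5 and Snhg8 (15.2%), 6 in Snhg7 (24.4%) and 3 in Snhg11 (83.9%). Gas5, with a run of 6 bases, was at 8.76, 9.33, 10.81 and 1.93 RPKM in motor neurons and 25.8 to 44.8 in white matter and was lower in motor neurons in WT (log2 difference -1.66 ± 0.54, limma, adjusted p = 0.0448) and in SMA (-2.81 ± 0.54, adjusted p = 0.00452), where the value without SMA motor neuron replicate 2 was -1.81 (adjusted p = 0.00223). These matches describe the letters in the windows only. The Snhg windows were chosen by the calls and the Snhg genes without a call were not examined, so a link between run and level was not tested.

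The highest snoRNA was Snord42a, which guides methylation of 18S ribosomal RNA and lies in an intron of Rpl23a, a protein of the large ribosomal subunit. It held 55 and 121 reads in WT motor neurons, 18 and 11 in SMA motor neurons, 98 and 193 in WT white matter and 272 and 249 in SMA white matter. As levels these were 13.4 and 34.7, 4.90 and 2.97, 25.1 and 44.3, and 62.5 and 53.8 RPKM. The 2 SMA motor neuron libraries were the lowest and the 2 SMA white matter libraries the highest, while the WT regions overlapped. The region difference was called in SMA (log2 -3.61 ± 0.45, limma, adjusted p = 0.000531, and -3.32 without replicate 2 of SMA motor neurons) and not in WT (-0.60 ± 0.45, adjusted p = 0.353). SMA against WT in motor neurons gave -2.23 ± 0.45, the smallest unadjusted p of any member in that comparison (0.000636), and did not pass (adjusted p = 0.556).

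Snord4a and Snord42b lie in the same host and could be set beside it. Snord4a held 26 and 23 reads in WT motor neurons, 7 and 0 in SMA motor neurons, 54 and 212 in WT white matter and 179 and 139 in SMA white matter. It was lower in motor neurons in both genotypes, by a log2 difference of -1.79 ± 0.56 in WT (limma, adjusted p = 0.0393) and -3.98 ± 0.56 in SMA (adjusted p = 0.000986), or -3.41 without SMA motor neuron replicate 2. Snord42b had another order: 10.98 and 12.9 RPKM in WT motor neurons, 13.1 and 21.2 in SMA motor neurons, 6.49 and 9.02 in WT white matter and 17.1 and 16.4 in SMA white matter. It was not called between regions (0.58 ± 0.32 in WT, adjusted p = 0.209; 0.00 ± 0.32 in SMA, adjusted p = 0.992). The difference between Snord42b and its neighbours was not tested. The host Rpl23a itself was at 9.62 to 15.3 RPKM in motor neurons and 28.8 to 42.9 in white matter and was lower in motor neurons in WT (-0.999 ± 0.25, adjusted p = 0.0152) and SMA (-1.95 ± 0.25, adjusted p = 0.000623). Snord42a and Snord4a also lie opposite an exon of Tlcd1 on the other strand, and without knowledge of strand in the authors' counting reads of the 2 genes cannot be told apart.

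**Figure D4:**
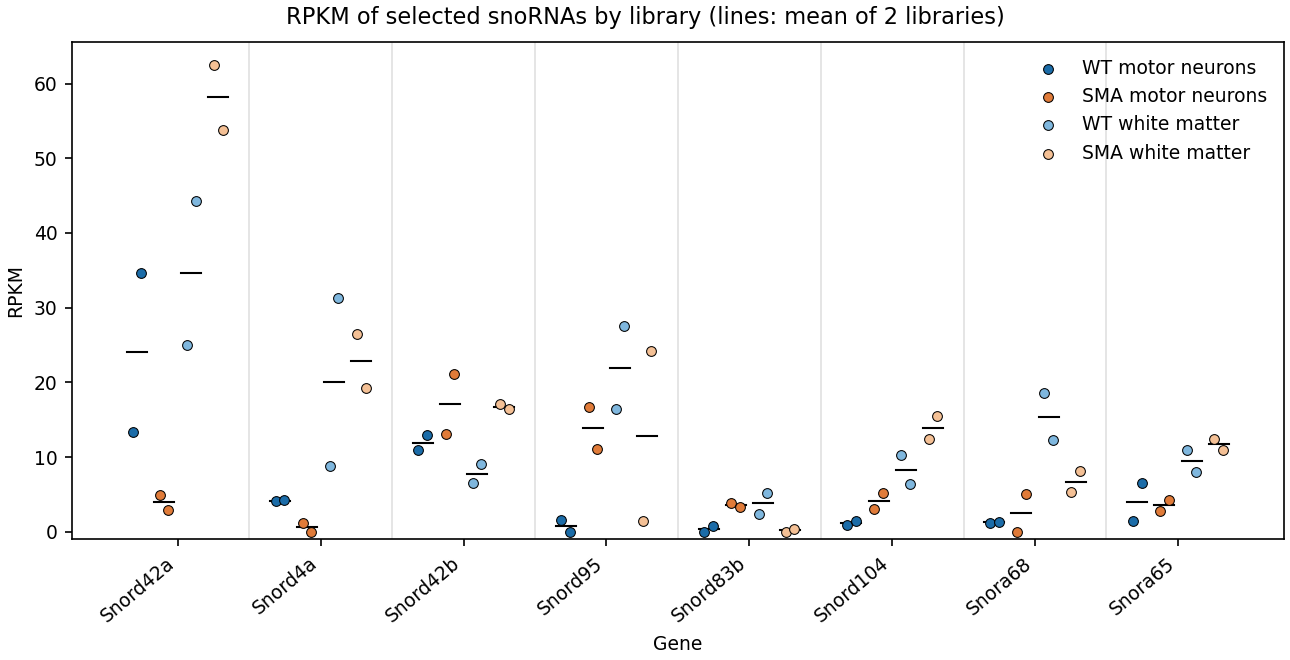
RPKM of 8 snoRNAs in each library; points are libraries, coloured by group, and lines mark the mean of 2 libraries. Snord42a and Snord4a are lowest in SMA motor neurons, Snord42b is not, and Snord95 and Snord83b are near 0 in WT motor neurons and in 1 or both SMA white matter libraries.

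Snord95 and Snord83b had the largest estimates of the SMA effect in motor neurons minus that in white matter (4.66 and 3.72), and neither passed. Snord83b, in an intron of the ribosomal protein gene Rpl3, held 0 and 5 reads in WT motor neurons, 24 and 21 in SMA motor neurons, 16 and 39 in WT white matter and 0 and 3 in SMA white matter. SMA lay above WT in motor neurons and below WT in white matter, with no overlap in either. The region difference was -1.76 ± 0.44 in WT (limma, adjusted p = 0.0149) and 1.96 ± 0.44 in SMA (adjusted p = 0.00936). The difference between them, 3.72 ± 0.62, had an unadjusted p of 0.000163 and did not pass over all genes (adjusted p = 0.883). Rpl3 was at 4.24 to 6.90 RPKM in motor neurons and 9.11 to 13.2 in white matter and was not called in either genotype (adjusted p = 0.12 and 0.0743).

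Snord95, which guides methylation of 28S ribosomal RNA, held 10 and 0 reads in WT motor neurons, 93 and 62 in SMA motor neurons, 97 and 181 in WT white matter and 10 and 169 in SMA white matter. SMA white matter replicate 1 thus lay with the WT motor neuron libraries, while the other white matter libraries were at 16.4 to 27.5 RPKM beside 16.7 and 11.1 in SMA motor neurons. It was lower in motor neurons in WT (log2 difference -3.78 ± 0.90, limma, adjusted p = 0.0116) and not called in SMA (0.88 ± 0.90, adjusted p = 0.48). Its host Gnb2l1 (Rack1), a ribosomal scaffold protein, was at 295 to 374 RPKM in motor neurons and 616 to 861 in white matter. Snord95 lies within an annotated exon of a Gnb2l1 transcript, yet its median level was 2.37% of its host's.

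The remaining snoRNAs called in both genotypes had few reads in motor neurons. Snord17, whose length of 221 bases exceeds that of the other Snord genes shown, held 16, 30, 0 and 18 reads in the motor neuron libraries and 119 to 221 in white matter. Its log2 difference was -1.72 ± 0.42 in WT (limma, adjusted p = 0.0128) and -2.81 ± 0.42 in SMA (adjusted p = 0.0013), or -3.30 without SMA motor neuron replicate 2. Its host Snx5, a sorting nexin, was also lower in every motor neuron library (1.75 to 22.5 RPKM against 60.1 to 107.2). The lowest value of Snx5 was in SMA motor neuron replicate 2, whereas Snord17 held 0 reads in replicate 1. The SMA difference of Snx5 was -3.39 ± 0.78 (limma, adjusted p = 0.0106) with that library and -1.84 (adjusted p = 0.00557) without it. Snord104, a guide for 28S ribosomal RNA, held 6 and 8 reads in WT motor neurons, 18 and 31 in SMA motor neurons, 65 and 45 in WT white matter and 88 and 116 in SMA white matter, so SMA lay above WT in each region. The region differences were -2.09 ± 0.37 (adjusted p = 0.00278) and -1.58 ± 0.37 (adjusted p = 0.0115). SMA against WT over both regions gave 0.96 ± 0.26 for Snord104, which did not pass (adjusted p = 0.761).

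Snord88a and Snord88c lie beside each other in 2410002F23Rik and share most of their letters. Snord88a held 4 reads in WT motor neuron replicate 2, 0 in the other motor neuron libraries and 18 to 32 in each white matter library. Snord88c held 2 reads in WT motor neuron replicate 1, 0 in the other motor neuron libraries and 13 to 86 in white matter. Snord88a was called by limma in WT (adjusted p = 0.0137) and SMA (adjusted p = 0.00204), and Snord88c in SMA (adjusted p = 0.0043). Both passed the filter through white matter alone, so these calls are a description. Their host went the other way, at 23.0 to 30.2 RPKM in motor neurons and 11.3 to 19.5 in white matter, with a call for higher in motor neurons in WT (log2 0.94 ± 0.27, adjusted p = 0.026). Snord85 held 0 to 3 reads in motor neuron libraries and 9 to 15 in white matter.

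**Figure D5:**
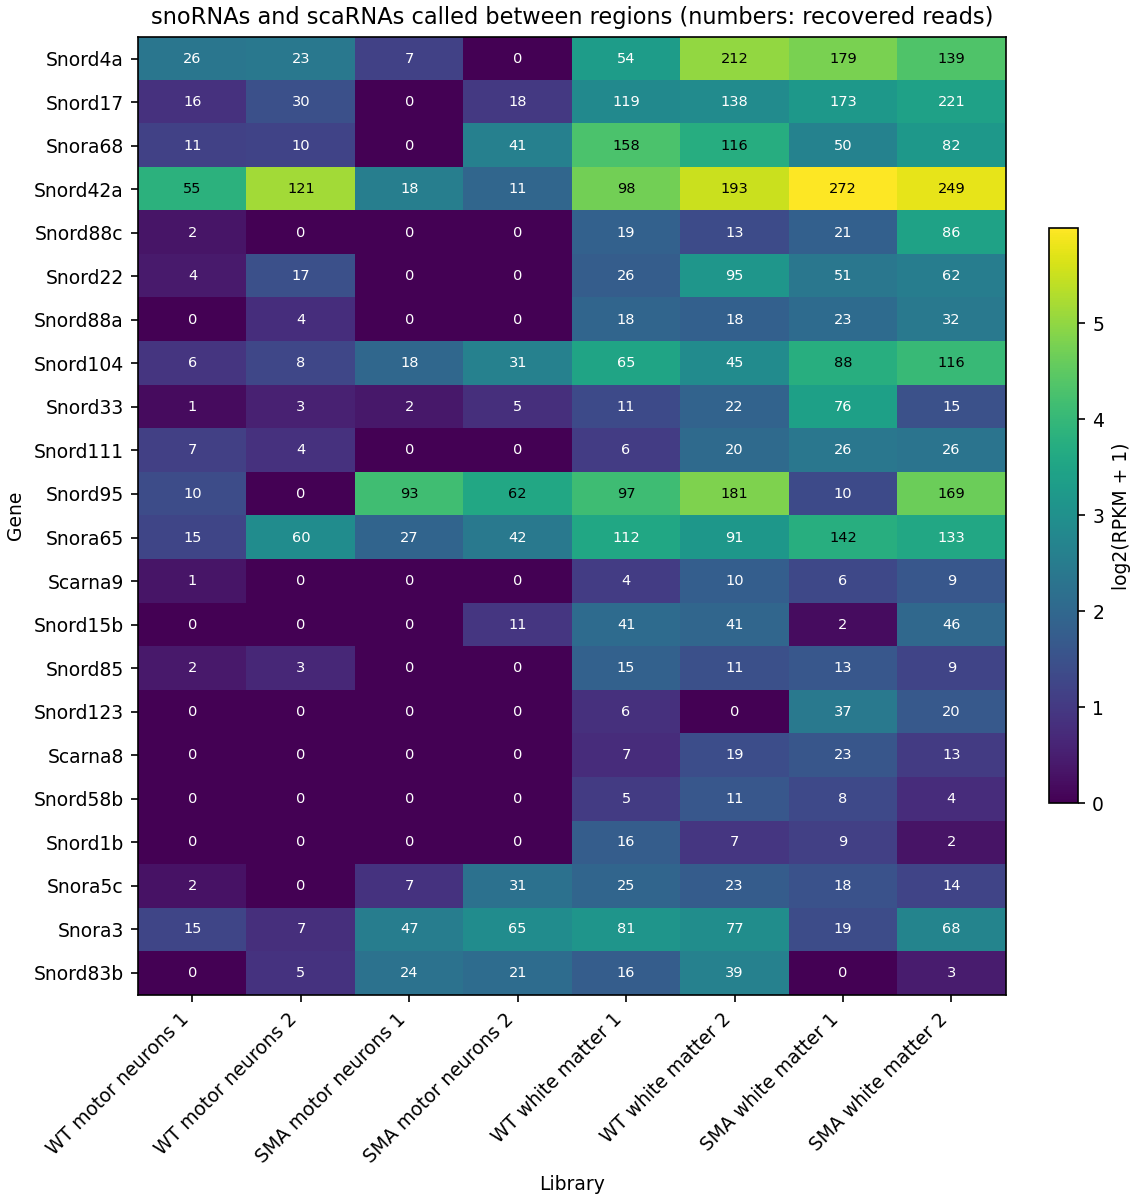
Levels as log2(RPKM + 1) (colour) and recovered reads (numbers) of the 22 snoRNA and scaRNA genes called between regions in at least 1 genotype, 1 column per library, ordered by the sum of their differences in both genotypes. Most motor neuron values are below the white matter values of the same gene, and Scarna8, Snord1b, Snord58b and Snord123 hold 0 in all 4.

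Of the H/ACA snoRNAs, Snora68 held 11 and 10 reads in WT motor neurons, 0 and 41 in SMA motor neurons, 158 and 116 in WT white matter and 50 and 82 in SMA white matter. It was lower in motor neurons in WT (log2 difference -2.82 ± 0.69, limma, adjusted p = 0.0139), and was not called in SMA (-1.62 ± 0.69, adjusted p = 0.104). Snora3 in Rpl27a and Snora5c in Tbrg4 were called lower in WT (log2 -2.004 ± 0.45 and -1.70 ± 0.45) but in SMA their regions overlapped. Snora65, in Rpl12, held 15 and 60 reads in WT motor neurons, 27 and 42 in SMA motor neurons and 91 to 142 in white matter. It was called in SMA alone (-1.49 ± 0.50, adjusted p = 0.0476), a call kept under 4 of 17 alternatives with adjusted p-values of up to 0.263 by limma. Snora65 exceeded its host in all 8 libraries, with a median of 351% of the level listed for Rpl12 (0.537 to 3.86 RPKM). That level is low beside another ribosomal protein host, Rpl4 (210 to 548 RPKM), and how the authors counted reads is not given.

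The small Cajal body RNAs were the thinnest class. Scarna9, a guide for the U2 spliceosomal RNA, held 1 read in WT motor neuron replicate 1, 0 in the other motor neuron libraries and 4, 10, 6 and 9 in white matter, and was called lower in motor neurons in WT (adjusted p = 0.0296) and SMA (adjusted p = 0.0152). Scarna8 had 0 reads in all motor neuron libraries and 7, 19, 23 and 13 in white matter, and was called in SMA (adjusted p = 0.023) and not in WT (adjusted p = 0.0521). Both Scarna9 and Scarna8 were tested only because white matter carried them past the filter, so their calls are a description. Scarna2, also a guide for U2, held most of its reads in motor neuron replicate 2 of each genotype (6 and 32 in WT, 2 and 29 in SMA, against 0 to 2 in white matter). It was not called in WT (1.88 ± 0.75, adjusted p = 0.0903) or SMA (1.31 ± 0.75, adjusted p = 0.213). Scarna17 held 22, 29, 19 and 3 reads in motor neurons and 6 to 25 in white matter. Scarna6, Scarna10, Scarna13 and Scarna3b were tested and not called in any comparison, with at most 40 reads in a library, and Scarna3a (33 reads in WT white matter replicate 1, 2 to 7 in the other white matter libraries, 0 in motor neurons) was not tested.

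The imprinted snoRNA clusters were nearly out of reach. The 3 Snord116 entries, from the cluster on mouse chromosome 7 that is lost in Prader-Willi syndrome, had identical values in every library, so they are 1 measurement: 16, 8, 1 and 13 reads in the motor neuron libraries and 0, 2, 0 and 0 in white matter. They were not called. The transcripts of their region and of the Dlk1-Dio3 region, which also carries snoRNAs, were higher in motor neurons. Snrpn was at 134 to 195 RPKM against 25.4 to 41.2, and Snurf, which shares its transcript, was almost equal to it. Rian was at 32.0 to 72.8 RPKM against 12.8 to 15.1, Meg3 at 16.5 to 24.4 against 1.77 to 5.58, and Mirg at 5.15 to 8.71 against 0.144 to 1.88. Of these 6 other hosts, Gas5 included, 5 rose and 1 fell in motor neurons in both genotypes by limma at an adjusted p under 0.05, around medians of 2.28 and 2.20 where those of all genes were 0.08 and -0.24.

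Host genes were found for 106 of the 114 snoRNA and scaRNA genes by position in the reference, and 100 had a host in the table (76 hosts). The reference put 57 genes in an intron, 34 in an intron that another annotated transcript retains and 15 in an exon of another annotated transcript. On the RPKM scale, 92 of the 100 had a lower mean than their host and 8 a higher one (Snora21, Snora64, Snora65, Snora78, Snord100, Snord42a, Snord7 and Snord93). Levels listed for ribosomal protein hosts differed widely, with Rps2, the host of Snora64, at 0.393 to 1.39 RPKM and Rpl4 at 210 to 548. The authors' counting is not given, and how far the ratios to hosts depend on it was not tested. The median gene stood at 4.45% of its host. That share was 3.69% for the 14 in an exon, 6.07% for the 33 in a retained intron and 3.63% for the 53 in an intron.

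Calls of members and hosts shared a direction in some cases and not in others. Of the 13 snoRNA and scaRNA genes called in WT with a host in the table, the host was called in the same direction for 5, in the opposite one for 2 (Tbrg4 with Snora5c and 2410002F23Rik with Snord88a) and not called for 6. In SMA these counts were 7, 0 and 6 of 13. Of all genes 9.85% were called lower in WT and 17.2% in SMA, and ribosomal protein hosts more often. A shared direction alone therefore does not show that member and host move together. Ribosomal protein genes hosted 28 members in 20 hosts. Of the 19 such hosts tested, 10 were lower in motor neurons in WT (9.85% of all genes) and 16 in SMA (17.2%), and none was higher. Of the 24 members inside them that were tested, 6 were lower in WT and 4 in SMA, the SMA share being near that of all genes. How much of a snoRNA value was host transcript was not tested.

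SMA and WT were then compared in each region. No member was called in motor neurons, in white matter, over both regions or in the difference between regions by limma at an adjusted p under 0.05, and 0% of all tested genes were called in each comparison. At an unadjusted p under 0.05 there were 11 of 100 members in motor neurons (4.37% of all genes), 8 in white matter (6.31%), 8 over both regions (5.99%) and 10 in the difference between regions (4.97%). With voom no member was called in any of the 4, and at an unadjusted p under 0.05 there were 1 of 100 members in motor neurons (4.41% of all genes), 1 in white matter (2.1%), 2 over both regions (4.06%) and 3 in the difference (2.7%). Only the fit without SMA motor neuron replicate 1 called members. These were Snhg1 (lower) and Snora5c (higher) in SMA motor neurons, and Snhg1 in the difference between regions. Genes outside the members were called in that fit too, most of them lower in SMA. SMA motor neuron replicate 2, then the lone library of its group and assumed to vary like the others, is the library that stood apart. No weight is given to these calls. The median difference of all genes was -0.05 in motor neurons and 0.27 in white matter on the deposited scale. Microglia markers summed to 25.9 and 30.5 RPKM in WT motor neurons and 88.3 and 76.4 in SMA motor neurons, with none of the 7 called, and their part in these values was not tested.

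The 11 members with an unadjusted p under 0.05 in motor neurons by limma on log2(RPKM + 1), of which voom had 1 at most, went both ways. Snord42a, Snhg12, Snord4a and Snord111 were lower in SMA, with log2 differences of -2.23, -1.37, -1.79 and -0.996. Snord83b, Snora3, Snord95, Snord104, Snora5c, Snhg5 and Snhg3 were higher, by 1.75, 1.70, 3.18, 1.21, 1.42, 1.57 and 0.90. Their adjusted p-values ran from 0.556 to 1.0. In white matter, Snord83b, Snord34, Snord71, Snord37 and Snora70 were lower in SMA (-1.97, -1.98, -2.51, -1.998 and -1.46) and Snord123, Snord42b and Snord45b higher (1.63, 1.04 and 2.92). Their adjusted p-values ran from 0.727 to 0.741. Snord71, in Ap1g1, held 72 and 139 reads in WT white matter and 0 and 60 in SMA white matter, and Snord37, in the elongation factor gene Eef2, held 53 and 29 against 0 and 23, so that the 0 in both came from SMA white matter replicate 1.

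Genes that build and place these RNAs were counted over lists of pathway genes. Of all tested genes, 18.6% were called higher and 9.85% lower in motor neurons in WT, and 13.6% and 17.2% in SMA. The single calls in the lists of 13, 10 and 19 genes below lie under the share of their direction and genotype. Of the 4 box C/D core proteins, Nop56 was higher in WT motor neurons (42.0 and 42.4 RPKM against 13.6 and 20.9, log2 1.27 ± 0.30, limma, adjusted p = 0.0113), and Fbl, Nop58 and Nhp2l1 were not called. Of the 4 H/ACA core proteins, Nop10 was higher in WT motor neurons (45.9 and 37.8 RPKM against 19.2 and 26.3, adjusted p = 0.0383). Dkc1, the pseudouridine synthase, was at 0.44 to 2.68 RPKM in motor neurons and 4.03 to 6.16 in white matter and missed the threshold in WT (-1.23 ± 0.45, adjusted p = 0.0673) and SMA (-1.32 ± 0.45, adjusted p = 0.0504). Of 13 tested genes for snoRNP assembly and scaRNA localisation, Rpap3 was higher in WT motor neurons (adjusted p = 0.0279) and none was called in SMA. Of 10 genes of nonsense-mediated decay, which degrades many spliced Snhg RNAs, 1 was higher in WT motor neurons (1200011M11Rik, adjusted p = 0.0469). Of 19 tested genes of RNA polymerase I and the nucleolus, Ddx21, a nucleolar helicase, was lower in SMA motor neurons than in SMA white matter (adjusted p = 0.0261). No gene of these lists was called between SMA and WT. Coil, the scaffold of Cajal bodies, was at 7.06 and 6.77 RPKM in WT motor neurons, 3.70 and 4.06 in SMA motor neurons and 1.88 to 5.21 in white matter, with no call.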

How the data were processed

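Total RNA of 8 laser-capture libraries was profiled by RNA-seq. Per the labels' protocols, cDNA came from NuGEN's Ovation V2 kit and was sheared and size-selected before library construction with the Encore kit. The values the authors deposited are RPKM, 1 number for each gene symbol in each library. TopHat, bedtools, DESeq and mm9 stand in the submitters' processing notes. The counting of reads, any use of strand, the annotation and all versions: not given in the sources used here.

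Reads were worked out as whole multiples of the RPKM steps: 17427 of 17431 genes above 0 in at least 3 libraries (99.98%) gave whole reads within 0.02 of a read. The reads that RPKM was scaled to numbered 77.5 to 103 M per library. Of the members, 108 had the reference length, 15 a length worked out and 2 none. Tests used limma 3.58.1 in R 4.3.3 on log2(RPKM + 1), 4 group means over all 8 libraries with a trended variance prior, for the 13948 genes with at least 1 RPKM in at least 2 libraries. Two-sided p-values were adjusted over all of them by Benjamini-Hochberg at 0.05. A log2 difference on this scale understates changes of low genes, and for a gene with 0 reads in a group it is no bound. Both scripts were tested on simulated data. Figures used Python 3.11.15 and matplotlib 3.10.9.

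Named genes were all Snhg and Scarna genes, every called Snord or Snora gene, the 10 Snord and 10 Snora genes with the highest mean, the Snord116 entries and the 3 smallest p-values in each direction of each comparison; not each is described. Host genes were found by position in GENCODE M21 (GRCm38). Snora70 and Snord111 were named from their unadjusted p. Members were picked by symbol alone, but both they and the lists were chosen with earlier results of these data known.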

Additional observations from a re-analysis of the deposited data

How the results depend on the processing

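The count of members called between regions moved with the processing in WT, and less in SMA. For the 4 comparisons of SMA with WT the main count was 0, and an unchanged 0 says little about stability. For motor neurons against white matter in WT, 18 of 100 members (28.4% of all genes) became 10 of 70, or 14.3%, with at least 20 reads in at least 2 libraries as the filter (23.7% of all genes), 43 with the compared libraries alone (38.1%) and 3 with voom on recovered reads (31.6%), and 5 to 32 (14.4% to 38.2%) when 1 library was left out. In SMA, 19 (30.8%) became 9 with voom (34.1%) and 18 with the compared libraries alone (17.3%). For the 4 SMA comparisons the count was 0 in every alternative that kept 2 libraries per group, where at most 0.0215% of all genes were called. The replicate block gave 16 members in WT (27.6% of all genes) and 18 in SMA (29.7%), and 0 in the 4 SMA comparisons. Same-numbered libraries deviated with correlations of -0.34 to 0.08, and the labels do not say whether they came from the same animals. Of 37 called differences, 31 stayed called with a pseudocount of 0.1 RPKM, 36 with median-of-ratios scaling, 35 with quantile normalization and 12 with voom. Scaling moved the median of all genes: in the white matter comparison of SMA with WT it was 0.27 as deposited, -0.01 after quantile normalization and 0.00 under median-of-ratios scaling. Relative to all genes, the members' median for motor neurons against white matter was -1.09 in WT and -0.50 in SMA, and the SMA value was -0.11 without SMA white matter replicate 2. Depth limits these results, since the median snoRNA or scaRNA had 89.5 reads over 8 libraries. The causes of these changes were not tested.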
